A study of Mus musculus with 4 samples.

Results

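The matrix metalloproteinases *Mmp2*, *Mmp8*, *Mmp9*, *Mmp12*, *Mmp14*, *Mmp19* and *Mmp25* and the inhibitors *Timp1* and *Timp2* were followed by name in CD45+ cells of the mouse brain and dura mater, and all 9 genes were listed in every library among the 19491 genes listed in any. The cells came from 8-week-old C57BL/6J mice at day 3 after photothrombotic injury (D3), in which a light-activated dye clots superficial vessels, or from controls (CT in the labels), which were taken as the sham-operated mice of the same day (S3). They were sorted for CD45, the surface protein of leukocytes, although the source labels of both brain libraries read "CD45-+", and sequenced on the 10× Chromium platform. Each of the 4 conditions (brain S3, brain D3, dura mater S3 and dura mater D3) has 1 library from a number of mice that the labels do not give, so no spread between mice can be measured, no test was made, and every interval below covers counting error only.

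After filtering, 3619 cells of brain S3, 4439 of brain D3, 3438 of dura mater S3 and 2607 of dura mater D3 were kept, with between 37522305 and 72439909 UMIs (counted RNA molecules) in a library. Levels (CPM) are the UMIs of a gene per 1000000 UMIs of a class, summed over its cells, with exact Poisson 95% intervals. Pairs of libraries shared between 3 and 11 cell barcodes. Classes are clusters named from fixed markers, and each name stands for cells that resemble the type (microglia-like, and so on). The 9 genes were left out of both the clustering and the naming. Brain S3 and D3 held 429 and 629 microglia, and 7 and 1453 infiltrating macrophages, the class led by *Gpnmb*, *Arg1*, *Fabp5* and *Spp1*. Dura mater D3 held 28 infiltrating macrophages and dura mater S3 held 0.

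Matrix metalloproteinases are zinc-dependent enzymes that are made as inactive precursors and cut collagens, elastin, laminin and other proteins of the matrix. Neutrophils store collagenase and gelatinase in granules that are filled while the cell matures, whereas macrophages make and secrete their enzymes on demand, and some members stay anchored in the cell membrane. The TIMP proteins bind the active site and block it. In injured brain these enzymes are best known for digesting the basal lamina of vessels and opening the blood-brain barrier, and in healing tissue for letting new vessels and leukocytes through the matrix.

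The genes are scattered over the genome except *Mmp8* (chr9:7558456-7568485) and *Mmp12* (chr9:7344381-7369499), which lie on the plus strand of the same metalloproteinase cluster of chromosome 9 (GRCm38, GENCODE vM21). The promoters of these neighbours are shown because the genes were detected in different cells, and that of *Timp1* because it had 0 UMIs at S3 and some at D3 in macrophages and Ly6C hi monocytes of the brain. Each covers the 250 bases before and the first 50 bases of a transcript (RefSeq, GRCm38.p6, plus strand), and capitals mark matches to the letters TGANTCA (AP-1), TTGCNNAA (C/EBP) or GAGGAAG (PU.1) on either strand:
*Mmp8*, chr9:7558179-7558478: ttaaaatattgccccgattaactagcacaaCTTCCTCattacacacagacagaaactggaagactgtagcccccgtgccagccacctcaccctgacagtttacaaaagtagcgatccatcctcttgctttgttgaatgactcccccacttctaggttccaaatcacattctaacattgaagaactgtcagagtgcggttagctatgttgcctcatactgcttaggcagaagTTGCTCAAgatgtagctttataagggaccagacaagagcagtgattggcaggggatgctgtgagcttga
*Mmp12*, first start, chr9:7344147-7344446: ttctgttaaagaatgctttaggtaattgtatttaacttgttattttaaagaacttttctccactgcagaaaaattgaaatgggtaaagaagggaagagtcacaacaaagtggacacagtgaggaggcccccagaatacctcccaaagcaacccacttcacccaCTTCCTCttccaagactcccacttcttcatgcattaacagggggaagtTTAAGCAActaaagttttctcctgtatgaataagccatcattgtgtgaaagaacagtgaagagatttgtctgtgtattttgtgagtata
*Mmp12*, second start, chr9:7347124-7347423: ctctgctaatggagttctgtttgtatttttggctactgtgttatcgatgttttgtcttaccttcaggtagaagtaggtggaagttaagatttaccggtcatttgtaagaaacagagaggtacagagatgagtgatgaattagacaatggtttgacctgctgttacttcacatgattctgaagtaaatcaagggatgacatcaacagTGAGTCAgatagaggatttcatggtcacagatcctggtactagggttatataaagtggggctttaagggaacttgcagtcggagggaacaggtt
*Timp1*, chrX:20869916-20870215: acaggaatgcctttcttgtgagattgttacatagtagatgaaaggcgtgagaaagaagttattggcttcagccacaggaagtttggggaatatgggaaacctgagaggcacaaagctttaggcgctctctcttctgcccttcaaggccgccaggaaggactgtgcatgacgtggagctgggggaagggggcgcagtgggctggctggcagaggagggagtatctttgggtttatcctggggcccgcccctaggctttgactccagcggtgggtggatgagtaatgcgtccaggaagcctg

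The *Mmp8* promoter held a C/EBP match whose first base is 19 bases before the start and a PU.1 match 220 bases before it. The first *Mmp12* start had C/EBP letters 39 bases and PU.1 letters 87 bases upstream, and the second start had AP-1 letters 44 bases upstream. The *Timp1* window held no exact match to the letters of the 3 motifs, and variants of the letters were not searched. Of the other promoters available, *Mmp25* held a PU.1 match 13 bases upstream while *Mmp14* and *Timp2* held no match. Of all 32851 promoters of the same length, 7.81% held the AP-1 letters, 10.8% the C/EBP letters and 13.6% the PU.1 letters, so that such matches are common, and none of them is shown to be a site. The matches do not overlap each other.

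The 9 genes fell into 3 groups by the cells that held them (plot of levels by cell class). *Mmp8*, *Mmp9* and *Mmp25* were found above all in granulocytes and their immature stages, and *Mmp2*, *Mmp12*, *Mmp14* and *Mmp19* in macrophages, microglia, monocytes or dendritic cells. Of the inhibitors *Timp2* was broad, while *Timp1* lay mostly in dendritic cells and, at D3, infiltrating macrophages. At D3 the infiltrating macrophages held 75.8% of the *Mmp14* UMIs, 66.3% of the *Mmp19* UMIs, 66.0% of the *Timp1* UMIs and 55.3% of the *Timp2* UMIs of the brain library, with 32.7% of its kept cells (plot of the classes that held the UMIs). These deep cells also held 32997494 of the 72439909 UMIs of all genes in that library, a larger share than their share of cells. In dura mater D3, *Lyve1*+ macrophages were the largest source of *Timp2*, with 57.3% of its UMIs.

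**Figure D1:**
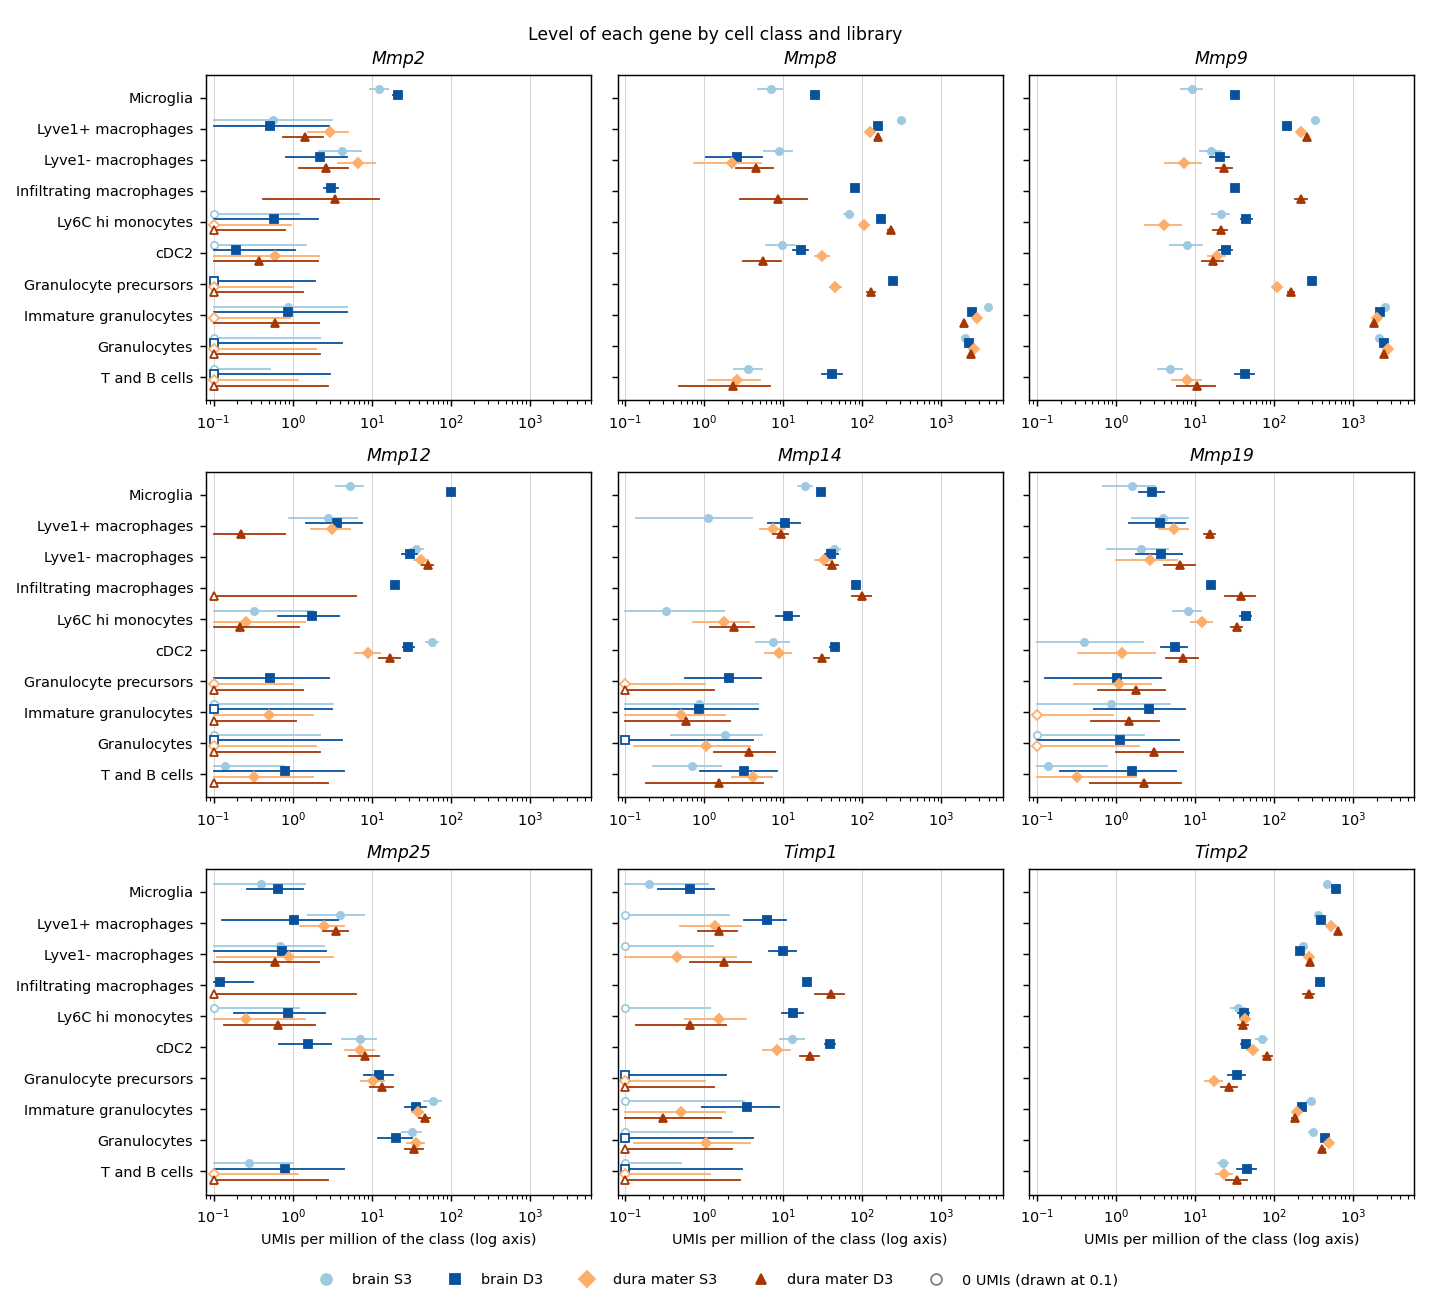
Level of each gene (CPM, UMIs of the gene per 1000000 UMIs of the class, log axis, with the Poisson 95% interval as a line) in 10 cell classes of the 4 libraries, S3 and D3 being sham and injury at day 3. Granulocytes sit between 2010 and 2771 for *Mmp8* and *Mmp9* in every library, *Mmp12* of brain D3 microglia sits at 99.8, and open symbols mark 0 UMIs, drawn at 0.1.

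**Figure D2:**
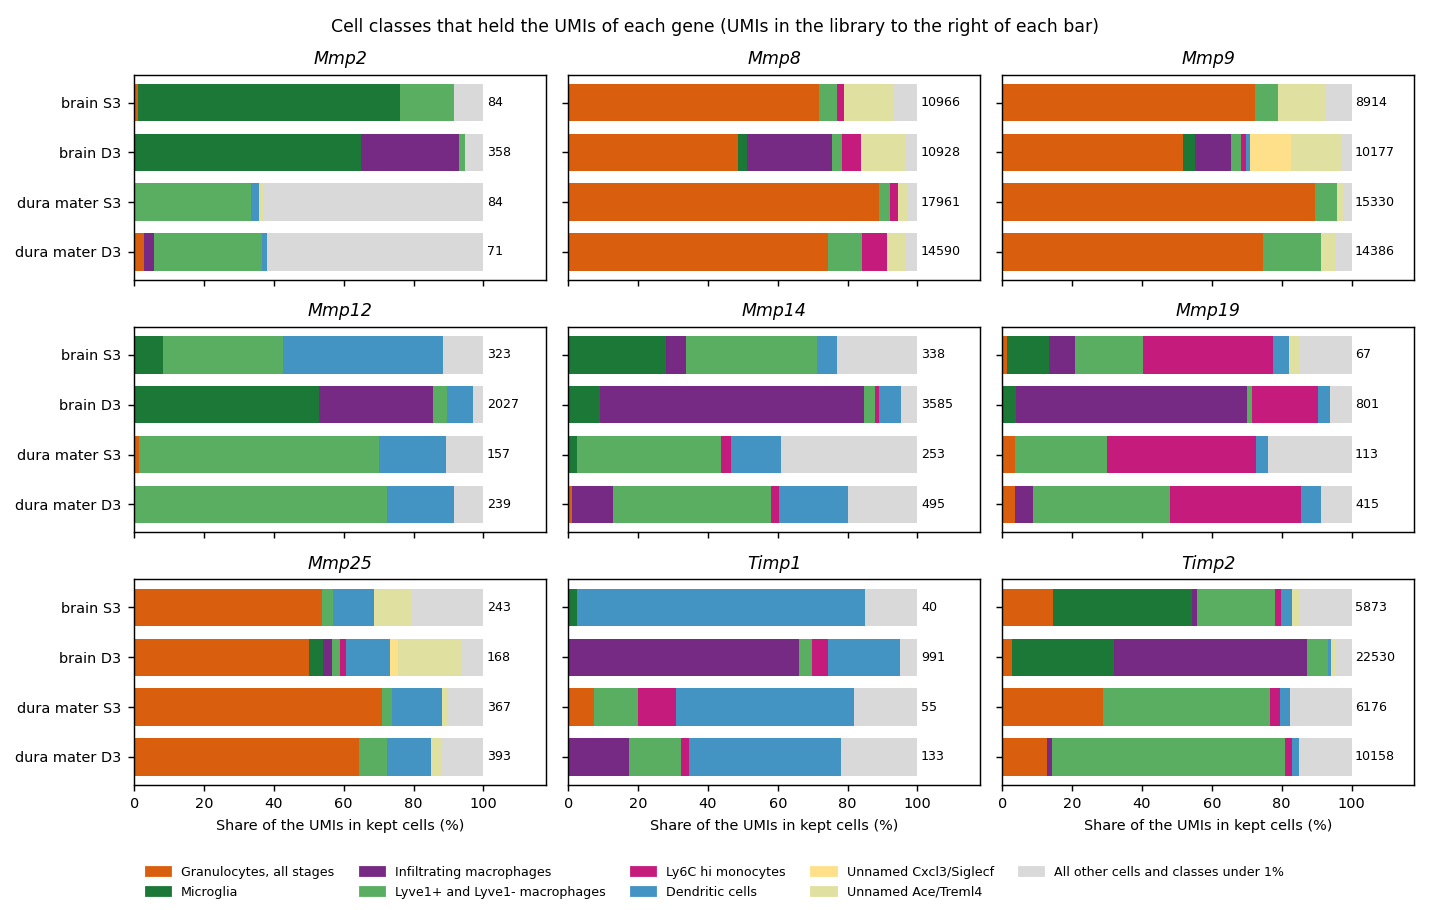
Share (%) of each gene's UMIs that each cell class held, in the kept cells of each library, with the number of UMIs at the right of the bar. Granulocytes of all stages (orange) hold most *Mmp8* and *Mmp9* UMIs of the sham brain and of both dura mater libraries, and infiltrating macrophages (purple) hold most *Mmp14*, *Mmp19*, *Timp1* and *Timp2* UMIs of brain D3.

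*Mmp9* (gelatinase B) and *Mmp8* (neutrophil collagenase) had the most UMIs of the 7 enzymes, in a kit that counts each molecule once near its 3' end, and their levels in granulocytes differed little between sham and injury. In granulocytes, *Mmp9* stood at 2112 CPM in brain S3, 2438 in brain D3, 2771 in dura mater S3 and 2450 in dura mater D3. *Mmp8* stood at 2010, 2277, 2567 and 2384 CPM in the same order. The log2 ratio of D3 over S3 was 0.21 (0.13 to 0.28) in the brain and −0.18 (−0.24 to −0.12) in the dura mater for *Mmp9*, and 0.18 (0.10 to 0.26) and −0.11 (−0.17 to −0.05) for *Mmp8*, so the direction differed between tissues and each difference was far under 2-fold. *Mmp25*, a neutrophil enzyme held in the membrane by a lipid anchor, stood at 32.1, 20.4, 36.0 and 34.7 CPM.

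The 4 genes that granulocytes carried were all lowest in precursors, in the libraries with enough of them. They differed in the size of the rise and in the later step (plot of levels over the stages). In granulocyte precursors, led by *Elane*, *Mpo* and *Prtn3*, the level of *Mmp8* was 244 CPM in brain D3, 129 in dura mater D3 and 45.6 in dura mater S3, and in immature granulocytes it was 2440, 1945 and 2800 CPM. The log2 ratio of immature cells over precursors was thus 3.32 (3.18 to 3.47), 3.92 (3.76 to 4.08) and 5.94 (5.72 to 6.17). For *Mmp9* it was 2.87, 3.49 and 4.22, for *Timp2* 2.73, 2.75 and 3.52, and for *Mmp25* 1.55, 1.81 and 1.90. From immature to mature granulocytes the genes parted. *Timp2* was higher in the mature cells of 3 libraries, by log2 ratios of 1.32 (dura mater S3), 0.97 (brain D3) and 1.17 (dura mater D3), but not detectably in brain S3 (0.06, −0.14 to 0.26). *Mmp9* was higher in the mature cells of the same 3 libraries with smaller ratios, 0.45, 0.16 and 0.40, but lower in those of brain S3 (−0.29). *Mmp25* was lower in the mature cells, by −0.90 (−1.44 to −0.36) in brain S3 and −0.83 in brain D3 with an interval that ended just under 0, and its intervals held 0 in both dura mater libraries. *Mmp8* was lower in the mature cells of brain S3 (−0.98), higher in those of dura mater D3 (0.29), and within 0.13 of the immature cells in the other two. Brain S3 had 8 precursors, too few to give levels.

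**Figure D3:**
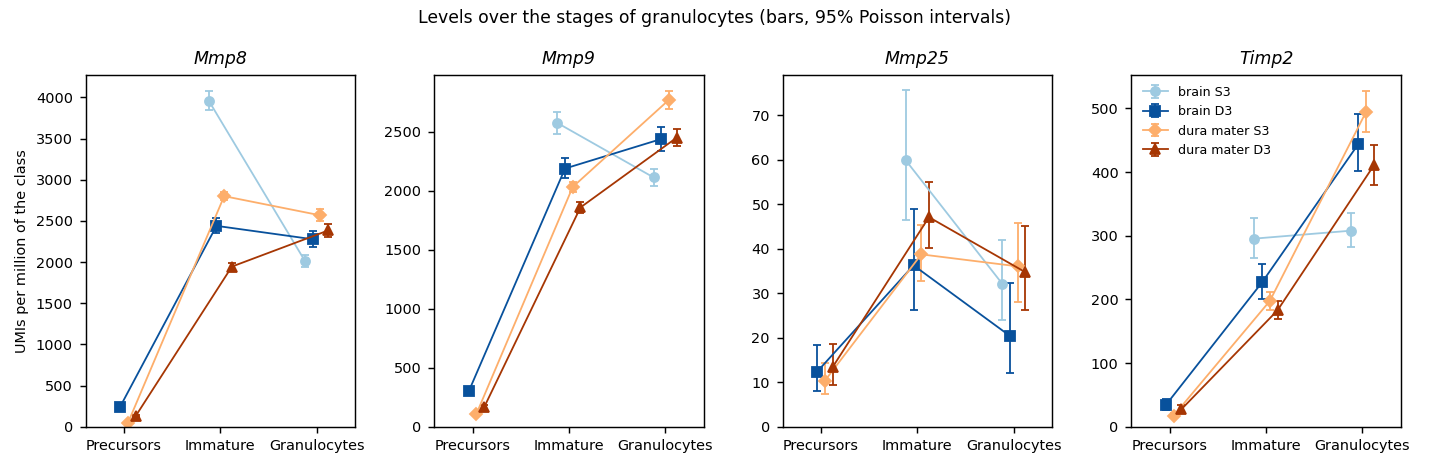
Levels of *Mmp8*, *Mmp9*, *Mmp25* and *Timp2* (CPM, UMIs of the gene per 1000000 UMIs of the class, bars for Poisson 95% intervals) in granulocyte precursors, immature granulocytes and granulocytes of each library, without precursors of brain S3. All 4 genes are lowest in precursors, and *Mmp9* is highest in mature cells in 3 of the 4 libraries and *Timp2* in all 4, by less than the counting error in brain S3.

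*Mmp8* and *Mmp9* separated in 1 further cluster, which stayed unnamed and was led by *Cxcl3* and *Siglecf*. Its 138 cells in brain D3 had a median of 3008 UMIs. *Mmp9* stood there at 2679 CPM, close to granulocytes (log2 ratio 0.14, 0.03 to 0.24), while *Mmp8* stood at 45.1 CPM (−5.66, −6.37 to −5.03) and *Timp2* at 56.4 CPM (−2.98, −3.62 to −2.39). Another unnamed cluster, led by *Ace* and *Treml4* with granulocyte markers above other cells, held *Mmp8* at 1441 CPM in brain S3 and 927 in brain D3. Outside granulocytes *Mmp25* was found in γδ T cells at 33.2 CPM in brain S3, 31.4 in brain D3, 29.7 in dura mater S3 and 28.0 in dura mater D3, a level like that of granulocytes, and at 57.1 CPM in 23 migratory dendritic cells of brain D3. Migratory dendritic cells of the other libraries were too few for a level. They held 8 UMIs in 7 cells of brain S3, 24 in 13 of dura mater S3 and 27 in 14 of dura mater D3.

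In *Lyve1*+ macrophages, most *Mmp8* and over 50% of *Mmp9* lay in cells that also carried granulocyte transcripts (plot of *Mmp8* and *Mmp9* outside granulocytes). Cells with at least 1% of their UMIs from the 10 granulocyte markers (*S100a8*, *S100a9*, *Csf3r* and 7 others) made up 31 of 140 *Lyve1*+ macrophages in brain S3, 15 of 170 in brain D3, 38 of 349 in dura mater S3 and 63 of 548 in dura mater D3. They held 98.7%, 95.5%, 96.2% and 98.0% of the *Mmp8* UMIs of these macrophages, and 95.1%, 78.6%, 51.1% and 69.8% of the *Mmp9* UMIs. What these cells are was not tested. Without them *Mmp8* stood between 3.72 and 8.57 CPM, beside 0.815 to 3.62 in T and B cells under the same limit, which should lack the gene.

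*Mmp9* stayed in the remaining *Lyve1*+ macrophages, at 125 CPM (114 to 137) in dura mater S3 and 95.6 (88.7 to 103) in dura mater D3, against 8.01 and 10.7 CPM in T and B cells. In the brain it stood at 24.5 CPM (16.4 to 35.2) in S3 and 36.7 (28.0 to 47.3) in D3. T and B cells of the brain had 4.59 and 22.0 (14.5 to 32.0), so that the D3 intervals meet. Of the 27 UMIs of these T and B cells at D3, however, 25 lay in B cells, in 4% of them. T cells alone had 2.33 CPM (0.282 to 8.42). The *Lyve1*+ macrophages of the dura mater were above those of the brain at both states, with intervals that do not meet. Higher still were the 28 infiltrating macrophages of dura mater D3, of which 0 were granulocyte-marked. They had *Mmp9* at 219 CPM (183 to 261), on 127 UMIs in 32.1% of the cells. In the remaining *Lyve1*- macrophages *Mmp9* was higher at D3 in both tissues, with 2.90 CPM in brain S3, 20.7 in brain D3 (2.83, 1.76 to 4.11), 6.34 in dura mater S3 and 18.9 in dura mater D3 (1.58, 0.73 to 2.53). The brain D3 level lies within the interval of T and B cells of that library.

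**Figure D4:**
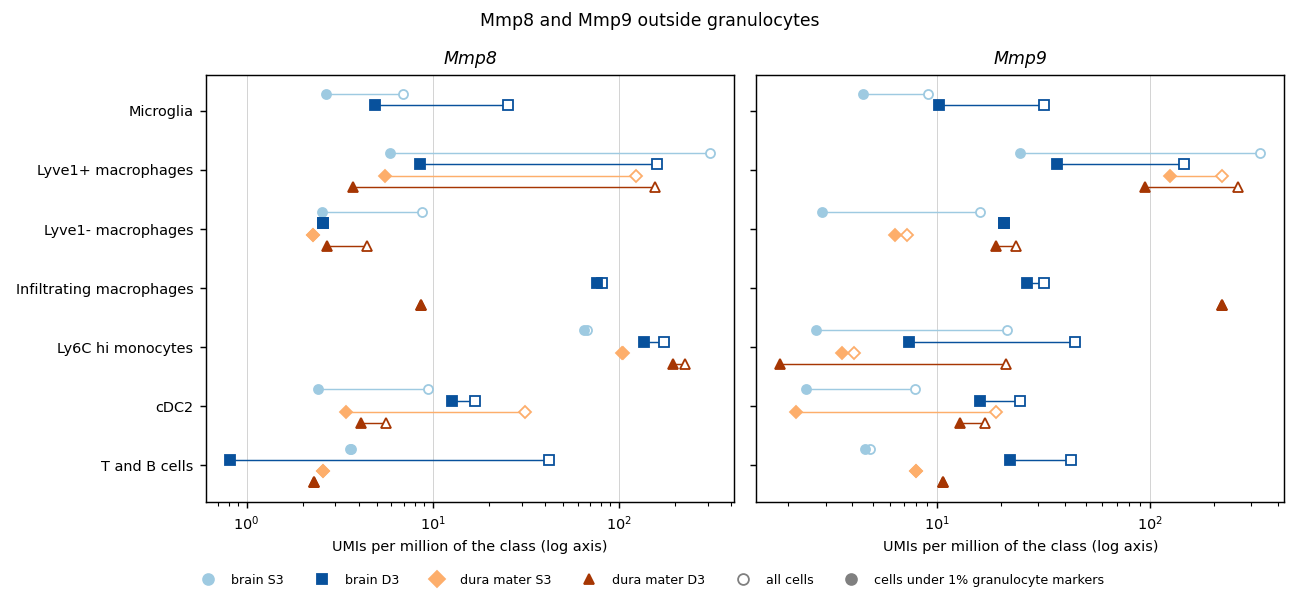
Levels of *Mmp8* and *Mmp9* (CPM, UMIs of the gene per 1000000 UMIs of the class, log axis) outside granulocytes, in all cells (open) and in cells with under 1% of UMIs from granulocyte markers (filled). Among the filled symbols, *Mmp8* of *Lyve1*+ macrophages lies below 10 CPM in every library, whereas *Mmp8* of infiltrating macrophages lies at 76.1 and *Mmp9* of dura mater *Lyve1*+ macrophages at 125 and 95.6.

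*Mmp8* was also present in Ly6C hi monocytes and infiltrating macrophages without the granulocyte-marked cells. In Ly6C hi monocytes, the classical blood monocytes, *Mmp8* stood at 67.5 CPM in brain S3, 174 in brain D3, 105 in dura mater S3 and 228 in dura mater D3. Both D3 libraries were above both S3 libraries, with log2 ratios of 1.36 (1.13 to 1.60) in the brain and 1.12 (0.96 to 1.29) in the dura mater. Without the granulocyte-marked cells the ratios were 1.07 and 0.90, the second under 2-fold. *Mmp9* in these monocytes stood at 21.3, 44.7, 4.08 and 21.1 CPM, but without those cells at 2.70, 7.38, 3.598 and 1.83. The dura mater ratio of 2.37 then became −0.97 (−2.43 to 0.38), on 8 UMIs at D3 and 14 at S3, with an interval that holds 0. The brain ratio without those cells was 1.45 (0.25 to 2.81). With all cells, the summed level of the granulocyte markers was also higher at D3, from 2878 to 6418 CPM in the brain and from 1803 to 4707 in the dura mater.

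In infiltrating macrophages of brain D3, *Mmp8* stood at 81.1 CPM and was detected in 46.1% of cells. *Mmp8*-positive cells carried more of the infiltrating marker list (23407 against 14103 CPM) and less of the Ly6C hi list (1338 against 2319 CPM) than the others, and were deeper (median 24865 against 18722 UMIs). Set against *Lyve1*+ and *Lyve1*- macrophages of the sham brain, *Mmp8* had a log2 ratio of −0.61 (−0.74 to −0.48) in all cells but 4.42 (3.67 to 5.29) without the granulocyte-marked cells, 76.1 against 3.55 CPM. *Mmp9* likewise turned from −2.10 to 1.504 (1.03 to 2.02), 26.6 against 9.38 CPM. The level of 26.6 CPM lies within the interval of T and B cells of brain D3 (22.0, 14.5 to 32.0), though T cells alone had 2.33.

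*Mmp12*, the macrophage elastase, showed the largest ratio in microglia but came from few cells. In microglia it stood at 5.35 CPM (3.53 to 7.78) in brain S3 and 99.8 (93.9 to 106) in brain D3, a log2 ratio of 4.22 (3.67 to 4.83). The UMIs lay in 46 of 629 cells at D3 and 5 of 429 at S3, and 1 cell of D3 held 313 of 1074 UMIs. Without the top cell of each library the levels were 71.0 and 2.39 CPM and the ratio 4.89 (4.08 to 5.85). When cells were gated one by one by their markers instead of by clusters, the ratio was 0.62.

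The *Mmp12*-positive microglia of D3 differed from the rest. They had a median of 33548 UMIs against 9793, carried 7179 against 14093 CPM of the microglia markers, and 12027 against 3795 CPM of the infiltrating macrophage markers. At a finer clustering the microglia split into a cluster led by *P2ry12*, *Slc2a5* and *Sparc*, with 360 cells at S3 and 335 at D3, and a cluster led by *Il1a*, *Gpr84* and *Lpl*, with 68 and 294 cells. *Mmp12* stood at 0.287 and 1.14 CPM in the first and at 16.8 and 132 CPM in the second. In *Lyve1*- macrophages *Mmp12* was found in all libraries, at 36.9 CPM in brain S3, 30.6 in brain D3, 42.5 in dura mater S3 and 51.3 in dura mater D3, also in under 10% of the cells. There too single cells carried much of it, up to 107 of the 173 UMIs of dura mater D3, and without the top cell of each library the levels were 19.6, 17.4, 20.2 and 19.7 CPM. For *Lyve1*+ and *Lyve1*- macrophages of the dura mater together the ratio of D3 over S3 was −0.22 with and −0.69 (−1.21 to −0.16) without the top cells. In *Lyve1*+ macrophages it was between 0.219 and 3.63 CPM. In cDC2, the dendritic cells that present to CD4+ T cells, it stood at 58.5, 29.1, 9.01 and 17.2 CPM, with a ratio of −1.01 (−1.34 to −0.67) in the brain and 0.93 (0.23 to 1.64) in the dura mater. A single cell of brain S3 held 61 of 148 UMIs, and without the top cells the brain ratio was −0.38 (−0.78 to 0.02) and the dura mater ratio 0.90 (0.08 to 1.75).

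*Mmp14*, the membrane-bound enzyme that activates the precursor of *Mmp2*, was highest in infiltrating macrophages among the classes with at least 20 cells of a library. It stood there at 82.4 CPM (79.3 to 85.5) in brain D3 and 98.3 (74.5 to 127) in the 28 cells of dura mater D3. It was detected in 71.7% of the brain cells, or in 15.0% with each cell thinned to 2000 UMIs, against 1.46% and 0.459% of T and B cells of that library, whose median depth was 5168 UMIs against 21222. The fibroblast-like cells, too few for a level, held 12 UMIs in 9 cells of brain S3 and 23 in 10 cells of dura mater D3. *Lyve1*- macrophages had 44.3, 40.6, 32.6 and 41.5 CPM in brain S3, brain D3, dura mater S3 and dura mater D3, levels whose intervals overlap. *Lyve1*+ macrophages had 1.12, 10.4, 7.45 and 9.32 CPM and were below *Lyve1*- macrophages in every library, by log2 ratios of −5.30, −1.97, −2.13 and −2.16, the sham brain value resting on 2 UMIs. Microglia had 18.8 CPM at S3 and 29.9 at D3 (0.67, 0.33 to 1.01).

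*Mmp14* was higher at D3 in cDC2 of both tissues and in Ly6C hi monocytes of the brain. In cDC2 of the brain it stood at 7.51 CPM at S3 and 44.6 at D3 (2.57, 1.89 to 3.33). In cDC2 of the dura mater it stood at 8.71 and 31.0 CPM (1.83, 1.203 to 2.49). *Mmp14*-positive cDC2 of brain D3 carried 2381 CPM of the infiltrating macrophage markers and 1925 of the cDC2 markers, against 733 and 3757 CPM in the others. In Ly6C hi monocytes of the brain it had 1 UMI at S3 and 39 at D3, a log2 ratio of 5.14 with an interval from 2.58 to 10.5, and in the dura mater 7 and 11 UMIs. Infiltrating macrophages of brain D3 stood above the Ly6C hi monocytes of the same library by 2.85 (2.399 to 3.35) for *Mmp14* and 3.51 (2.38 to 4.96) for *Mmp12*, and below them by −1.45 (−1.72 to −1.18) for *Mmp19* and −1.10 (−1.23 to −0.97) for *Mmp8*.

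*Mmp2* (gelatinase A), between 1.75 and 4.94 CPM over all kept cells, lay in the brain mostly in microglia, which held 75.0% of its UMIs at S3 and 64.8% at D3. Its level there was 12.5 CPM (9.59 to 16.0) at S3 and 21.6 (18.9 to 24.5) at D3, a ratio of 0.79 (0.38 to 1.21), and infiltrating macrophages of D3 had 3.06. It was not detected in T and B cells of any library. In the cluster led by *Il1a*, *Gpr84* and *Lpl* it stood at 7.10 CPM at S3 and 22.5 at D3, and in that led by *P2ry12* at 14.9 and 18.6. Of the fibroblast markers, 5 of 7 were at 0 in microglia of D3 and 4 of 7 at S3, and the list summed to 0.465 and 0.793 CPM.

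In the dura mater the largest share of *Mmp2* UMIs, 36.9% at S3 and 39.4% at D3, lay in the few fibroblast-like cells that passed the CD45 sort. In *Lyve1*+ and *Lyve1*- macrophages together *Mmp2* stood at 4.22 CPM in S3 and 1.76 in D3 (−1.26, −2.13 to −0.40, 28 and 22 UMIs), and the fibroblast markers of these macrophages summed to 48.7 and 29.5 CPM, the same direction, with all 7 detected in both. Their part in the result was not tested. The ratio was between −0.99 and −0.56 under 3 of the alternatives.

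*Mmp19*, an enzyme active on basement membrane proteins, was above sham in Ly6C hi monocytes of both tissues. It stood at 8.07 CPM (5.23 to 11.9) in brain S3, 44.1 (37.4 to 51.7) in brain D3, 12.2 (9.02 to 16.2) in dura mater S3 and 34.0 (28.8 to 39.7) in dura mater D3. Both D3 intervals lie above both S3 intervals, with ratios of 2.45 (1.83 to 3.12) and 1.47 (0.997 to 1.97). In dura mater *Lyve1*+ macrophages it stood at 5.42 CPM at S3 and 15.4 at D3 (1.502, 0.87 to 2.19), and in brain *Lyve1*+ macrophages it had 7 UMIs in each library. With each cell thinned to 2000 UMIs the ratio for *Lyve1*+ and *Lyve1*- macrophages of the dura mater together was 0.77. In cDC2 it had 1 UMI at S3 and 29 at D3 in the brain (3.82, 1.23 to 9.18), and 4 and 19 in the dura mater. Infiltrating macrophages had 16.1 CPM in the brain and 37.9 in the dura mater. T and B cells had between 0.139 and 2.29 CPM.

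Of the inhibitors, *Timp2*, which binds *Mmp14* at the cell surface and brings the precursor of *Mmp2* to it, was the most evenly spread. It was detected in 96.5% of microglia at S3 and 95.4% at D3, at 465 and 609 CPM (0.39, 0.32 to 0.46). *Lyve1*+ macrophages had 357, 393, 528 and 638 CPM in brain S3, brain D3, dura mater S3 and dura mater D3, above *Lyve1*- macrophages, with 235, 213, 279 and 285 CPM, in every library. Infiltrating macrophages of brain D3 had 377 CPM, 3.19 (2.95 to 3.43) above the Ly6C hi monocytes of that library, which had 41.5 CPM, close to the 45.1 CPM of T and B cells. No ratio of *Timp2* between D3 and S3 in the 8 main comparisons reached 2-fold.

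*Timp1*, the soluble inhibitor that injured tissue makes, was rare at S3 and more frequent at D3. In infiltrating macrophages it stood at 19.8 CPM (18.3 to 21.4) in the brain and 39.7 (25.1 to 59.5) in the dura mater. In cDC2 it stood at 13.05 CPM in brain S3 and 39.4 in brain D3 (1.59, 1.06 to 2.17), and at 8.41 CPM in dura mater S3 and 21.6 in dura mater D3 (1.36, 0.69 to 2.07). Of the 33 UMIs of brain S3, 22 lay in 1 cell, and without the top cells the ratios were 3.05 (2.18 to 4.08) and 1.96 (1.13 to 2.87). In *Lyve1*+ and *Lyve1*- macrophages of the brain it had 0 UMIs in 366 cells at S3, which allows up to 0.645 CPM, and 39 UMIs (8.41 CPM) in 12 of 404 cells at D3, at least 3.71 higher on the log2 scale against a floor of 3 UMIs. In brain Ly6C hi monocytes it had 0 UMIs at S3 and 45 in 14 of 244 cells at D3, at least 3.76 higher. With the top cell left out these bounds were 3.28 and 3.36. With each cell thinned to 2000 UMIs they were 0.27 and 0.61, against the same floor. S3 stays at 0 UMIs when thinned, so these low bounds do not show a smaller difference. In dura mater Ly6C hi monocytes *Timp1* had 6 and 3 UMIs. T and B cells had 0 UMIs in all libraries.

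Within infiltrating macrophages of brain D3 the genes were seen together about as often as the product of their shares. *Mmp14* and *Timp1* were seen together in 14.2% of the cells, where the product of their shares is 13.6%, and *Mmp12* and *Timp1* in 1.17%, where it is 1.16%. For *Mmp14* and *Mmp19* the values are 15.8% and 16.3%, and for *Mmp2* and *Mmp14* 5.16% and 4.44%. The values for *Mmp14* and *Timp2* are 64.1% and 61.9%. Cells with *Mmp14* were deeper than those without it (median 22519 against 18408 UMIs). *Mmp14*, with its UMIs in many cells, had 34.1% of them in the top 10% of cells, while all *Mmp12* UMIs lay in 89 cells.

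The members were then counted in 8 comparisons, a gene being called when it differed by at least 2-fold and had at least 20 UMIs in both groups together (plot of log2 ratios). In granulocytes 4 of the 9 genes had enough UMIs in the brain and 4 in the dura mater, and 0 were called in either, where among all genes 2.78% were called higher and 8.08% lower in the brain and 5% and 4.94% in the dura mater. In microglia 3 of 7 were higher (*Mmp8*, *Mmp9* and *Mmp12*) and 0 lower, against 5.42% and 5.94% of all genes. *Mmp8* stood at 6.93 CPM at S3 and 25.3 at D3 (1.87, 1.35 to 2.42), and *Mmp9* at 9.11 and 31.8 (1.80, 1.35 to 2.28). The median log2 ratio of the members was 0.86 and that of all genes −0.18. The granulocyte markers of microglia summed to 1411 CPM at S3 and 3175 at D3. Without the granulocyte-marked cells the ratio of *Mmp8* was 0.89, under 2-fold, and that of *Mmp9* 1.18, and with no filter on cells they were −0.42 and −0.44.

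In *Lyve1*+ and *Lyve1*- macrophages of the brain 1 of 8 members was higher (*Timp1*) and 0 were lower, against 1.07% and 2.91% of all genes. In those of the dura mater 1 of 9 was higher (*Mmp19*) and 1 lower (*Mmp2*), against 1.86% and 1.99%. The medians were −0.14 and 0.41, beside −0.05 and −0.07 for all genes. In the brain macrophages *Mmp8* stood at 124 CPM at S3 and 68.0 at D3 and *Mmp9* at 137 and 72.5, while the granulocyte markers summed to 12489 and 6717 CPM. Without the granulocyte-marked cells *Mmp9* stood at 9.38 CPM at S3 and 26.7 at D3. The D3 level lies within the interval of T and B cells of that library. The ratio of *Mmp9* turned from −0.92 to 1.51 (0.96 to 2.08) when those cells were left out. In the dura mater macrophages, where the markers summed to 7762 and 17469 CPM, it turned from 0.41 to −0.18 (−0.34 to −0.01).

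In infiltrating macrophages of brain D3 against *Lyve1*+ and *Lyve1*- macrophages of brain S3, 3 of 8 were higher (*Mmp14* at 1.57, *Mmp19* at 2.53 and *Timp1* at least 4.94) and 1 lower (*Mmp9*), against 7.43% and 19.2% of all genes. This comparison sets different cell classes beside each other, with median depths of 21222 and 11441 UMIs. Against the same macrophages of brain D3 the ratios were 1.55 for *Mmp14*, 2.13 for *Mmp19* and 1.24 for *Timp1*.

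In Ly6C hi monocytes of the brain 5 of 6 were higher (*Mmp8*, *Mmp9*, *Mmp14*, *Mmp19* and *Timp1*) and 0 lower, against 4% and 4.29% of all genes, with a median of 1.91 against −0.05. In those of the dura mater 3 of 4 were higher (*Mmp8*, *Mmp9* and *Mmp19*) and 0 lower, against 2.2% and 2.5%, with a median of 1.30 against −0.02. With each cell thinned to 2000 UMIs the brain count was 1, *Mmp8*, *Mmp9*, *Mmp14* and *Timp1* being under 2-fold. At S3 these monocytes had 0 UMIs of *Timp1* and 1 of *Mmp14* before thinning. The thinned value of *Timp1* is thus a bound against the floor of 3 UMIs. For these genes thinning leaves too few UMIs to tell whether the difference is smaller. Without the granulocyte-marked cells the dura mater count was 1, *Mmp19*.

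**Figure D5:**
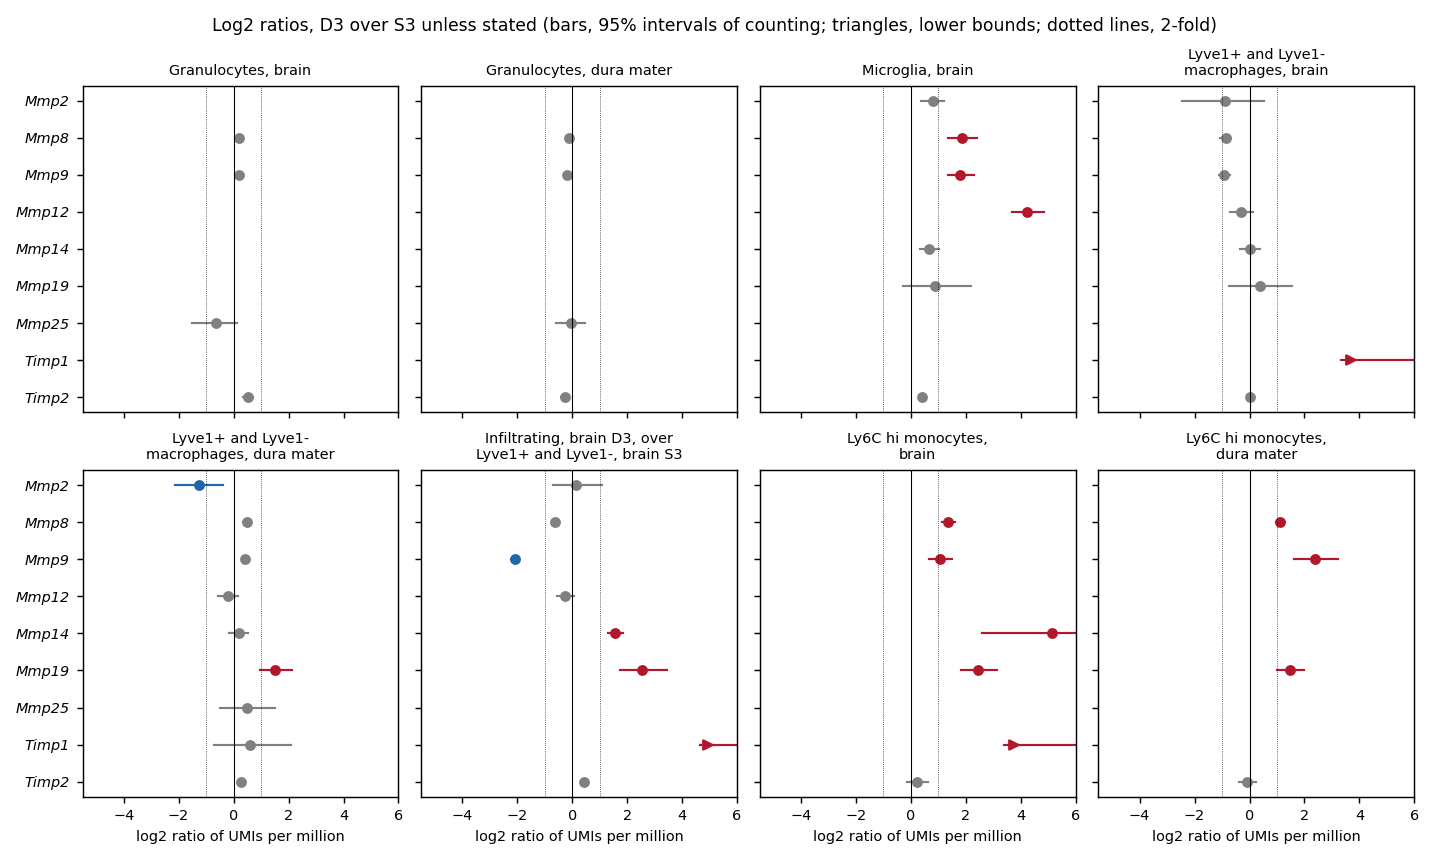
Log2 ratio of the CPM of each gene, D3 over S3 unless stated, in the 8 comparisons, with 95% counting intervals cut at the edge of the axis, for genes with at least 20 UMIs. Red marks at least 2-fold higher, blue at least 2-fold lower, grey neither, triangles lower bounds, and dotted lines 2-fold. No gene is coloured in granulocytes, while 5 are red in brain Ly6C hi monocytes.

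Other genes of the pathway, in lists made for their role, were counted by the same rule. Among 19 other metalloproteinases and inhibitors, 14 were listed in a file and at most 5 were abundant enough in any comparison. In infiltrating macrophages *Mmp27* had 742 UMIs against 0 in the sham macrophages (at least 5.12 higher), and *Mmp13*, a collagenase, stood at 1.88 against 39.1 CPM (−4.38, −4.82 to −3.96). In dura mater *Lyve1*+ and *Lyve1*- macrophages *Reck*, a membrane inhibitor, had 19 UMIs against 3 (1.75, −0.01 to 4.15).

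Of 20 activators and partners, 8 were higher and 3 lower among the 19 abundant enough in infiltrating macrophages. *Serpine2*, an inhibitor of serine proteases, stood at 3.19, and the lysosomal proteases *Ctsd* and *Ctsb* at 3.09 and 2.14. *Lcn2*, whose protein binds and stabilises *Mmp9*, stood at −2.99, *Plau*, the urokinase that activates plasminogen, at −2.69, and *Cd74* at −2.50. *Lcn2* was higher at D3 in microglia (2.30), dura mater *Lyve1*+ and *Lyve1*- macrophages (2.12) and Ly6C hi monocytes of the brain (2.89) and dura mater (2.36), and is itself a marker of immature granulocytes.

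In Ly6C hi monocytes of the brain 6 of 17 activators and partners were higher and 0 lower, among them the neutrophil elastase gene *Elane* (4.82), *Lcn2* and *Cd63* (2.80), whose membrane protein binds *Timp1*. In microglia 2 of 16 were higher, *Lcn2* and *Cd63* (1.09), and 0 lower. In Ly6C hi monocytes of the dura mater 1 of 16 was higher, *Lcn2*, and in dura mater *Lyve1*+ and *Lyve1*- macrophages 1 of 18 was higher and 1 lower, *Ctsg* (−1.19), a protease of neutrophil granules. In granulocytes 1 of 13 was higher in the brain, *Ctsb* (1.31), and 0 of 13 in the dura mater, and 0 of 15 were called in brain *Lyve1*+ and *Lyve1*- macrophages. Of 11 other metalloproteinases, *Adam8*, a membrane protease of leukocytes, was higher in microglia (2.04), infiltrating macrophages (1.19) and brain Ly6C hi monocytes (1.28), *Adam9* in the last (1.10), and *Adam19* (−3.10) and *Adamts1* (−2.93) were lower in infiltrating macrophages. *Adamts1* was also lower in dura mater *Lyve1*+ and *Lyve1*- macrophages (−2.16).

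The genes whose levels ran most like a member's were named over 58 groups (a class of a library with at least 50 cells), from Pearson's r of log2(CPM + 1) as a description, since groups of 1 library share its depth and preparation. For *Mmp8* they were *Padi4* (0.93), *Tnfaip6* (0.91) and *Retnlg* (0.91), for *Mmp9* *Retnlg* (0.95), *Ceacam10* (0.93) and *Cxcr2* (0.93), and for *Mmp25* *Card10* (0.87), *Ccdc189* (0.83) and *Dgat1* (0.82). *Retnlg* and *Cxcr2* are among the granulocyte markers that named the clusters. For *Mmp12* they were *Creb5* (0.82), *Arhgap22* (0.81) and *Zmynd15* (0.80), for *Mmp14* *F11r* (0.82), *Arhgap22* (0.81) and *Cxcl16* (0.81), for *Mmp19* *Ms4a8a* (0.79), *Ccl9* (0.76) and *Idh1* (0.76), and for *Mmp2* they included *Rilpl1* (0.77) and *Nectin2* (0.76). *Timp1* was nearest to *Flrt3* (0.77), *Pitpna* (0.71) and *Wnt11* (0.70), and *Timp2* to *Gm38843* (0.82), *Cln3* (0.79) and *C5ar1* (0.79). Between members the highest values were 0.86 for *Mmp8* and *Mmp9* and 0.73 for *Mmp12* and *Mmp14*.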

How the data were processed

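CD45+ cells of brain and dura mater were profiled with the Chromium 3' v3 kit in 4 libraries, 1 per condition. The authors used Cell Ranger 3.1.0 (mm10) and Seurat 3.1.0, and each deposited value is a natural log, ln(1 + x), with x the UMIs of a gene scaled to 10000 per cell. The plan assumed counts, and UMIs were recovered from these values (100% whole within 1e-06). Genes are listed only if seen in at least 3 cells, and an unlisted gene counts as 0. Barcodes numbered between 3515 and 5925 and deposited UMIs between 49003977 and 115154317 per library.

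Cells had to show more than 1000 and fewer than 6000 genes, with no more than 7% of UMIs mitochondrial. Scrublet (scanpy 1.11.5) marked under 0.5% of barcodes, so the highest doublet scores were removed at 0.8% per 1000 barcodes. Seurat 5.3.0 (2500 variable genes, less members and pathway genes, 30 components, 20 neighbours, resolution 0.6) gave clusters, named from the list with most markers among 10 leading genes, with at least 3 detected. Levels have exact Poisson intervals, shares exact Clopper-Pearson intervals, and ratios exact intervals of Poisson counts. With 1 library per condition no test was made. Alternatives changed resolution, gating, cell and doublet filters, depth, weighting, free RNA, cell number and the UMI minimum. All 9 members are named, with at most 3 genes per direction from other lists and the 3 most alike. The members, lists and scoring were chosen with earlier results of these data known. RefSeq held promoters of 6 members. *Mmp12*, *Mmp19*, *Mmp25* and *Timp1* overlap genes of the other strand and *Timp2* overlaps *Cep295nl*, so shared reads are possible. An item that these rules would name is not reported here. The scripts were tested on simulated data.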

Additional observations from a re-analysis of the deposited data

How the results depend on the processing

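Of 18 called values, 5 stayed at least 2-fold in the same direction under every alternative that gave a value: *Mmp14*, *Mmp19* and *Timp1* of infiltrating macrophages and *Mmp19* of Ly6C hi monocytes in both tissues. Over all alternatives, 142 of 171 values did so and 8 reversed. *Mmp8* of microglia was −0.42 with no filter on cells and −0.13 with doublets kept, and *Mmp9* of microglia −0.44 with no filter. *Mmp9* of infiltrating over sham macrophages was 0.91 at resolution 1.2, 0.69 with no filter and 1.504 without granulocyte-marked cells, a setting chosen after seeing the data. *Mmp9* of Ly6C hi monocytes was −3.06 in the brain with free RNA subtracted and −0.97 (−2.43 to 0.38) in the dura mater without granulocyte-marked cells. The cause was not tested. Members called in brain granulocytes numbered 3 with cells gated one by one, and in dura mater granulocytes 1 with doublets kept or with at least 5 UMIs, against 0. These were other members than *Mmp8*, *Mmp9*, *Mmp25* and *Timp2*, which stayed under 2-fold in granulocytes under every alternative that gave a value. In microglia 1 was left with free RNA subtracted. In brain *Lyve1*+ and *Lyve1*- macrophages, against 1, the number was 4 when gated, 3 with no filter, by the mean over cells, with 2500 cells per library or without granulocyte-marked cells, 2 with doublets kept, free RNA subtracted or at least 5 UMIs, and 0 when thinned. In those of the dura mater, against 2, it was 1 with doublets kept, thinned or by the mean over cells. Infiltrating macrophages had 7 with doublets kept, against 4. Ly6C hi monocytes had 1 when thinned and 3 with free RNA subtracted in the brain, and 1 without granulocyte-marked cells in the dura mater. The thinned values of *Timp1* in brain Ly6C hi monocytes and brain *Lyve1*+ and *Lyve1*- macrophages were bounds against the floor. No paired analysis was possible because each condition has 1 library. A member under 20 UMIs in both groups of a comparison was below what this depth can compare. Leaving out the top cell was also chosen after seeing the data.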
